A study of Mus musculus with 8 samples.

Results

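The genes described are the cytokines of the interleukin-6 (IL-6) family, their receptor subunits and their feedback inhibitor in mouse peritoneal mesothelial cells (MCs), the cells that line the peritoneal cavity. They were taken by name: the ligands Il6, Il11, Lif and Clcf1, the receptor subunits Il6st, Il11ra1, Osmr and Lifr, and the inhibitor Socs3. All 9 were found among the 13687 genes of the expression table and all 9 were among the 13665 genes tested.

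Gene expression was measured by RNAseq in cultured MCs of 2 WT mice and of 2 littermates lacking caveolin-1 (CAV1-/-, a germline deletion on the C57BL/6 background, labelled Cav-1-). Each animal gave 1 culture kept static and 1 culture exposed to mechanical stretch for 24 h after reaching confluence, so that the 8 libraries form 4 groups of 2 cultures. The deformation applied to the mouse cells and the age of the animals are not given in the sources used here. With 2 animals per genotype, p-values rest on the spread between very few animals. Values are TMM-normalized CPM, that is, reads scaled to a common library size with a correction for composition (trimmed mean of M-values), and cultures are given as replicate 1 and replicate 2, the same number in static and stretched cultures of a genotype being the same animal.

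Libraries held 9777738 to 21203938 reads, and all 4 stretched libraries were deeper than all 4 static ones, so depth and stretch cannot be told apart by design. Cav1 itself was 764 and 275 TMM-normalized CPM in static WT MCs and 570 and 247 in stretched WT MCs, against 34.5 and 18.9 in static and 20.0 and 12.8 in stretched CAV1-/- MCs, replicate 1 before replicate 2 here and throughout. The genotypes did not overlap in Cav1. The cultures also differed in cell type markers. The 12 mesothelial markers with values of 13 listed summed to 3115 to 4115 TMM-normalized CPM in WT and to 924 to 1177 in CAV1-/- cultures, all 12 were lower on average in CAV1-/- cultures, and the keratin Krt8 and the surface protein Lrrn4 passed the test in both culture conditions. The 10 leukocyte markers with values of 12 listed summed to 4684 and 4726 in the static and stretched cultures of CAV1-/- replicate 1, against 74.0 to 455 in the other 6 cultures, and all 10 were highest in those 2 cultures. In CAV1-/- replicate 2 they summed to 295 and 326, below WT replicate 1, at 435 and 455. The 4 endothelial markers with values summed to 15.0 and 17.6 in the cultures of CAV1-/- replicate 1 and to 2.85 to 6.94 in the other 6. Of these 4 markers, 3 were highest in those 2 cultures. The 5 smooth muscle markers summed to 7414 and 5518 in the static and stretched cultures of CAV1-/- replicate 1 and to 2309 to 5278 in the other 6. Acta2 made up most of this sum, at 6045 and 4382 in those 2 cultures, and 3 of the 5 markers were highest in both. Smtn went the other way, at 166 to 195 in the CAV1-/- cultures and 197 to 298 in WT. In RNA from whole cultures, fewer cells of a type and less RNA per cell cannot be told apart.

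Cytokines of this family bind a ligand-specific receptor and the shared signal-transducing subunit gp130, which is encoded by Il6st. The receptor complex activates JAK kinases and the transcription factor STAT3, and STAT3 induces Socs3, whose product binds gp130 and the kinases and dampens the signal. In the peritoneum, IL-6 made by MCs is known for its part in the recruitment of leukocytes, and IL-11 is known as a profibrotic factor in several tissues.

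The stretches upstream of the start sites of Il6, Il11 and Socs3 are shown because these genes include the ligand and the inhibitor that differed between genotypes and the ligand that was higher on stretch. Osmr, which also differed, has no such stretch free of annotated exons. They are RefSeq sequences on GRCm38.p6, 5′ to 3′ on the strand of the gene, of at most 250 bases before the start site. Capitals mark matches, on either strand, to a motif of AP-1 (TGANTCA), NF-kB or STAT proteins (TTCNNNGAA). The motif of TEAD proteins (CATTCC) was also searched and had no match in these 3.
Il6, chr5:30012864-30013113, plus strand: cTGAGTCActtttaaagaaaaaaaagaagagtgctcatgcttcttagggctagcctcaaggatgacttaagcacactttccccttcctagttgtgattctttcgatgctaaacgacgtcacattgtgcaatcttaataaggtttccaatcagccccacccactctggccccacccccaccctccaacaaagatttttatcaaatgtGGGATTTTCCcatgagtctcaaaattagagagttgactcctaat
Il11, chr7:4778142-4778391, minus strand: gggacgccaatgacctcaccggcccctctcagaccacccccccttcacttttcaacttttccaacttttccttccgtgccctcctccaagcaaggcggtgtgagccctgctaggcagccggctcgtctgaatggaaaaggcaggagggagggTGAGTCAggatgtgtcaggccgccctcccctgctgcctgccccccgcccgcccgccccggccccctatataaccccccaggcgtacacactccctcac
Socs3, chr11:117969452-117969616, minus strand: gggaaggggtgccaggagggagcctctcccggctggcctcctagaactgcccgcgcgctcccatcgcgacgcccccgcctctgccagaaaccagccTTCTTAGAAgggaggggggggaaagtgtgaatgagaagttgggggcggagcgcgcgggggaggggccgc
The Il6 window ends at the base before the start and holds an AP-1 match that begins 249 bases, and an NF-kB match that begins 44 bases, before it. The Il11 window belongs to the downstream of 2 RefSeq start sites, lies in an intron of the longer gene model and holds an AP-1 match 98 bases before the start. The Socs3 stretch runs from 250 to 86 bases before the start, stops where an annotated exon begins, and holds a STAT match 154 bases before the start. Promoter sequences were listed for 8 of the 9 genes. Lif also had an AP-1 match, 228 bases before its start, and Il11ra1 a TEAD match 78 bases before the second of its starts, whereas Il6st, Osmr and Lifr had none of the 4 motifs. Of 32851 mouse promoter windows of 250 bases, 6.75% held the AP-1 motif, 0.356% the NF-kB motif, 7.02% the STAT motif and 12.6% the TEAD motif. These matches describe letters only.

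Levels between genes were compared per kilobase of the longest annotated transcript. In static WT MCs, Il6st was highest at 49.3 ± 12.9 CPM per kilobase (SD, n = 2, as for the other values per kilobase), followed by Il11ra1 at 21.8 ± 3.21 and Osmr at 20.5 ± 1.56. Il11ra1 and Osmr did not differ beyond their spread. Clcf1 followed at 11.4 ± 0.178, then Socs3 at 6.83 ± 1.48 and Lif at 6.60 ± 0.26, which did not differ beyond their spread, then Lifr at 2.57 ± 1.52, Il11 at 1.55 ± 0.674 and Il6 at 0.848 ± 0.312. Lifr and Il11, and likewise Il11 and Il6, differed by less than the sum of their SDs. In static WT MCs the receptor subunits Il6st, Il11ra1 and Osmr were thus above every ligand. With the union of annotated exons as length, Osmr fell below Clcf1, at 9.31 against 10.6 CPM per kilobase. In static CAV1-/- MCs, Osmr was 39.0 ± 2.87 and Il6st 37.9 ± 8.91 CPM per kilobase, and Il6 was 21.1 ± 12.4, which did not differ beyond its spread from Il11ra1 at 22.3 ± 2.17 or Socs3 at 16.4 ± 0.883.

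**Figure D1:**
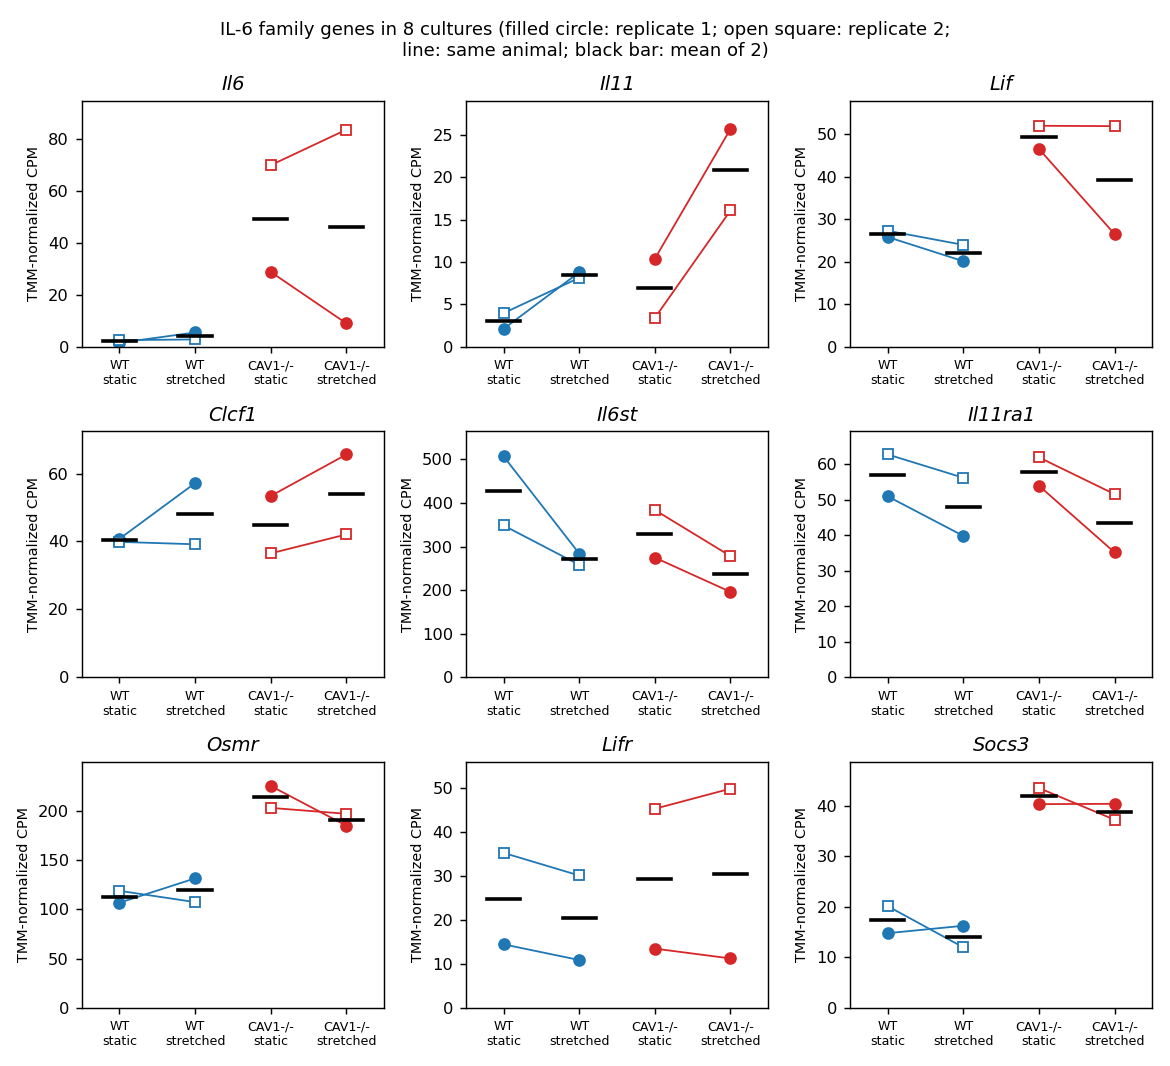
Levels of the 9 genes in each of the 8 cultures (TMM-normalized CPM, linear axes from 0). Lines join the static and stretched culture of 1 animal and black bars are group means of 2. Il6, Osmr and Socs3 lie higher in all 4 CAV1-/- cultures than in all 4 WT cultures, and Il11 is higher on stretch in each animal.

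The comparison of genotypes asked which genes differ in MCs that lack caveolin-1, the protein that forms caveolae. Il6, Osmr and Socs3 were higher in every CAV1-/- culture than in every WT culture, with and without stretch. None of the 9 genes passed an adjusted p of 0.05 by limma on log2(TMM-normalized CPM + 1) in either culture condition, a test that called 10 genes (0.0732%) in static and 8 (0.0585%) in stretched MCs. At an unadjusted p under 0.05 the test gave 1117 and 856 genes. DESeq2 on the recovered reads called Il6, Osmr and Socs3 in both conditions, among 2.26% of all genes in static and 1.74% in stretched MCs. Both tests count the 2 cultures of an animal as independent when they estimate the spread, so their p-values for genotype can be too small. All 4 CAV1-/- cultures were above all 4 WT cultures for 3 of the 9 genes, against 3.86% of all genes tested.

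Il6, the founding cytokine of the family (chr5:30013114-30019981), was 1.47 and 2.50 TMM-normalized CPM in static WT MCs and 28.8 and 70.0 in static CAV1-/- MCs. In stretched MCs it was 5.47 and 2.77 in WT and 8.98 and 83.7 in CAV1-/- cultures. The CAV1-/- cultures were thus higher in both conditions, narrowly so in stretched replicate 1 and widely in both cultures of replicate 2. The difference on the log2(CPM + 1) scale was 3.97 (SE 1.00) in static MCs, with a limma adjusted p of 0.295, and 2.56 (SE 1.00) in stretched MCs, with a limma adjusted p of 0.753. The WT values rest on 21 to 111 reads and the CAV1-/- values on 185 to 1530. Of the CAV1-/- animals, replicate 2 had the higher Il6 and the lower leukocyte marker sum. Without both cultures of replicate 1, which leaves 1 CAV1-/- culture per condition, the difference was 4.59 in static and 4.10 in stretched MCs. The mesothelial marker sum was lower in all 4 CAV1-/- cultures, and the part of cell composition in this result was not tested.

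**Figure D2:**
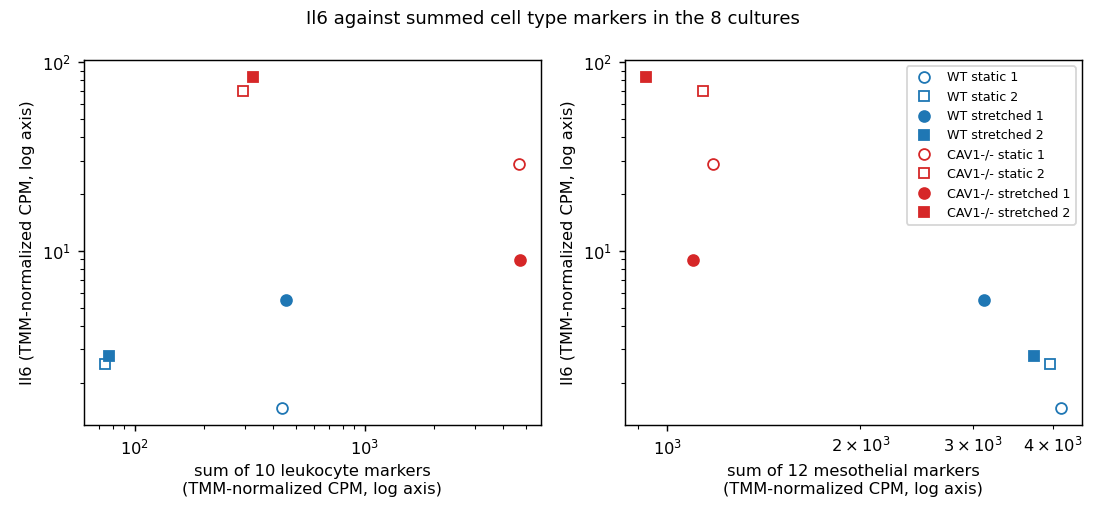
Il6 (y axis) against the sums of 10 leukocyte markers (left) and 12 mesothelial markers (right) in the 8 cultures, all in TMM-normalized CPM on log axes. The 2 cultures with the highest Il6, at 70.0 and 83.7, have leukocyte sums of 295 and 326, and the CAV1-/- cultures lie apart from the WT cultures in the mesothelial sum.

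Osmr, the oncostatin M receptor subunit that pairs with gp130 (chr15:6813577-6874969), was 107 and 119 TMM-normalized CPM in static WT MCs and 225 and 203 in static CAV1-/- MCs. In stretched MCs it was 131 and 107 in WT and 185 and 197 in CAV1-/- cultures. The genotypes did not overlap in either condition, and the replicates lay close together. The log2 difference was 0.92 (SE 0.14) in static MCs, with a limma adjusted p of 0.102, and 0.68 (SE 0.14) in stretched MCs, with a limma adjusted p of 0.302. Its ligand Osm, in contrast, was at 0 to 0.308 in 6 cultures and at 3.87 and 3.40 in those of CAV1-/- replicate 1, the cultures with the high leukocyte markers.

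Socs3, the STAT3-induced inhibitor of gp130 signalling (chr11:117966079-117970047), was 14.8 and 20.1 TMM-normalized CPM in static WT MCs and 40.3 and 43.5 in static CAV1-/- MCs. In stretched MCs it was 16.2 and 12.0 in WT and 40.4 and 37.2 in CAV1-/- cultures. The 4 CAV1-/- cultures lay within a narrow range, above all WT cultures. The log2 difference was 1.23 (SE 0.21) in static MCs, with a limma adjusted p of 0.122, and 1.41 (SE 0.21) in stretched MCs, with a limma adjusted p of 0.144. Without both cultures of CAV1-/- replicate 1 the difference was 1.29 in static and 1.36 in stretched MCs, and that of Osmr 0.85 and 0.73.

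Lif, leukemia inhibitory factor (chr11:4257557-4272514), was 25.8 and 27.3 TMM-normalized CPM in static WT MCs and 46.6 and 52.0 in static CAV1-/- MCs. In stretched MCs it was 20.1 and 24.0 in WT and 26.5 and 51.9 in CAV1-/- cultures. The genotypes did not overlap within either condition, but the stretched culture of CAV1-/- replicate 1 lay just below the higher static WT culture. The log2 difference was 0.87 (SE 0.30) in static and 0.73 (SE 0.30) in stretched MCs, with limma adjusted p-values of 0.507 and 0.804.

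Both CAV1-/- cultures were above both WT cultures for 4 of the 9 genes in static MCs (Il6, Lif, Osmr and Socs3), against 16.1% of all genes tested, and for 5 in stretched MCs (these 4 and Il11), against 14.6%. No member had both CAV1-/- cultures below both WT cultures in static or stretched MCs, as 20.8% and 15.9% of all genes did. The median log2 difference of the 9 genes was 0.85 in static and 0.68 in stretched MCs, beside -0.013 and 0.00 over all genes tested.

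**Figure D3:**
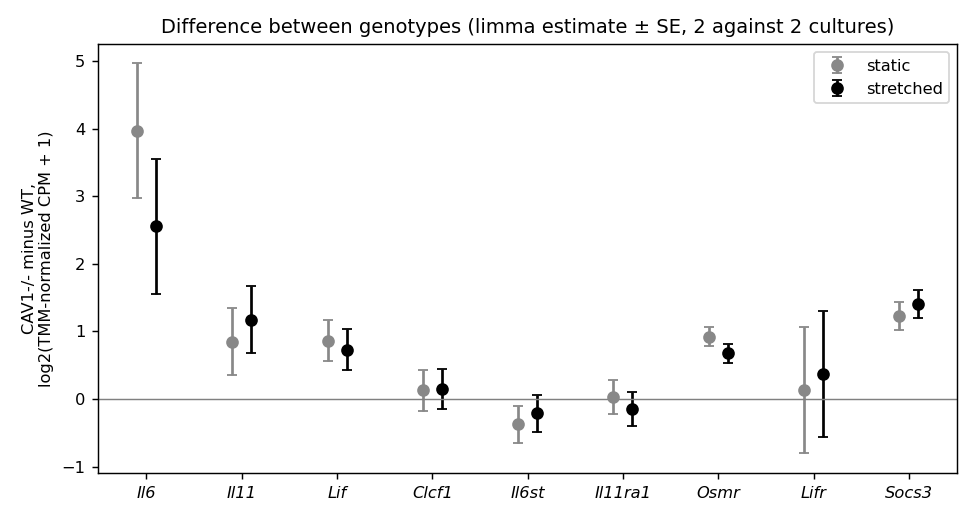
Difference between CAV1-/- and WT MCs for each gene on the log2(TMM-normalized CPM + 1) scale, in static (grey) and stretched (black) cultures. Points are limma estimates and bars their SE. Il6 has the largest difference and the widest error, and Osmr and Socs3 differ by several SE in both conditions.

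For Clcf1 and for the receptor subunits Il6st, Il11ra1 and Lifr the genotypes overlapped in both conditions. The log2 difference in static MCs was -0.37 (SE 0.27) for Il6st, with a limma adjusted p of 0.832.

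The comparison of stretched with static cultures asked what mechanical load changes in MCs. Il11 was higher on stretch in all 4 animals, and Il6st, Il11ra1 and Lif were lower in all 4. Over all genes tested, 14.5% were higher and 16.9% lower on stretch in all 4 animals. No gene, and so no member, passed an adjusted p of 0.05 by limma without pairing (0%) in WT MCs, in CAV1-/- MCs or averaged over both genotypes, with 310, 286 and 647 genes at an unadjusted p under 0.05. Since the 2 cultures of an animal pair, a fit with the animal as a replicate block was also made for the averaged change. It called 201 genes (1.47%), among them Il11 and Il6st. Cell type markers also moved with stretch. The mesothelial marker sum was lower on stretch in all 4 animals, going from 4115 to 3115 and from 3953 to 3733 in WT and from 1177 to 1096 and from 1135 to 924 in CAV1-/- MCs, and the fibroblast and smooth muscle sums were likewise lower in all 4. With the block, limma called the mesothelial markers Upk3b (adjusted p 0.0327) and Krt7 (adjusted p 0.0472). Upk3b fell by 1.04 and Krt7 fell by 0.88 on the log2 scale. Of the 12 mesothelial markers, 8 were lower and 4 higher on stretch on average, and Pdpn was higher in all 4 animals. The fibroblast marker Pdgfrb was also higher in all 4. The leukocyte marker sum was higher on stretch in all 4 animals. It went from 435 to 455 and from 74.0 to 77.4 in WT MCs. In CAV1-/- MCs it went from 4684 to 4726 and from 295 to 326. Of the 10 leukocyte markers, however, 3 were higher and 7 lower on stretch on average. Lyz2, the highest of them in every culture, went from 302 to 345 and from 27.5 to 29.6 in WT MCs. In CAV1-/- MCs Lyz2 went from 3648 to 3920 and from 201 to 231, so the sum mostly follows this gene. The part of these markers in the changes of the members was not tested. An exact sign-flip test over 4 animals cannot give a two-sided p below 0.125, the value obtained for Il11, Il6st, Il11ra1 and Lif.

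Il11, a cytokine that signals through Il11ra1 and gp130 (chr7:4772373-4782859), was 2.10 and 3.96 TMM-normalized CPM in static WT MCs and 8.78 and 8.13 in stretched WT MCs. In CAV1-/- MCs it was 10.4 and 3.39 without and 25.7 and 16.1 with stretch. Every stretched culture of a genotype was above every static culture of it, although static CAV1-/- replicate 1 was above both stretched WT cultures. Stretched over static, the level was 4.18-fold and 2.06-fold in WT and 2.48-fold and 4.74-fold in CAV1-/- animals. The averaged log2 change was 1.43 (SE 0.35 in the fit without pairing). Its limma adjusted p was 0.984 without pairing and 0.0327 with the animal as a block. With the block, the limma adjusted p was 0.131 without CAV1-/- replicate 1, 0.124 without CAV1-/- replicate 2, 0.0332 without WT replicate 1 and 0.00478 without WT replicate 2, and the change stayed between 1.24 and 1.63. The lowest value rests on 30 reads and the highest on 530.

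The change of Il11 was 1.27 (SE 0.50) in WT and 1.60 (SE 0.50) in CAV1-/- MCs, and the genotype by stretch interaction was 0.33 (SE 0.71), with a limma adjusted p of 1.00. Stretched CAV1-/- MCs had the highest Il11 of the 4 groups. Between genotypes the log2 difference was 0.85 (SE 0.50) in static and 1.18 (SE 0.50) in stretched MCs, with limma adjusted p-values of 0.780 and 0.826. Without both cultures of CAV1-/- replicate 1 it was 0.16 in static and 0.85 in stretched MCs.

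Il6st, which encodes the shared subunit gp130 (chr13:112464070-112510086), was 507 and 348 TMM-normalized CPM in static WT MCs and 284 and 258 in stretched WT MCs. In CAV1-/- MCs it was 275 and 384 without and 196 and 278 with stretch. The stretched WT cultures lay below both static ones, and in CAV1-/- MCs the ranges overlapped although each animal fell. It fell by 44.0% and fell by 26.0% in the WT animals and fell by 28.7% and fell by 27.6% in the CAV1-/- animals. The averaged log2 change was -0.55 (SE 0.19 in the fit without pairing). Its limma adjusted p was 0.984 without pairing and 0.0363 with the animal as a block. With the block, the limma adjusted p was 0.183 without CAV1-/- replicate 1, 0.142 without CAV1-/- replicate 2, 0.0492 without WT replicate 1 and 0.00485 without WT replicate 2, and the change stayed between -0.45 and -0.65. Per genotype it was -0.63 in WT and -0.47 in CAV1-/- MCs (SE 0.27 each).

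**Figure D4:**
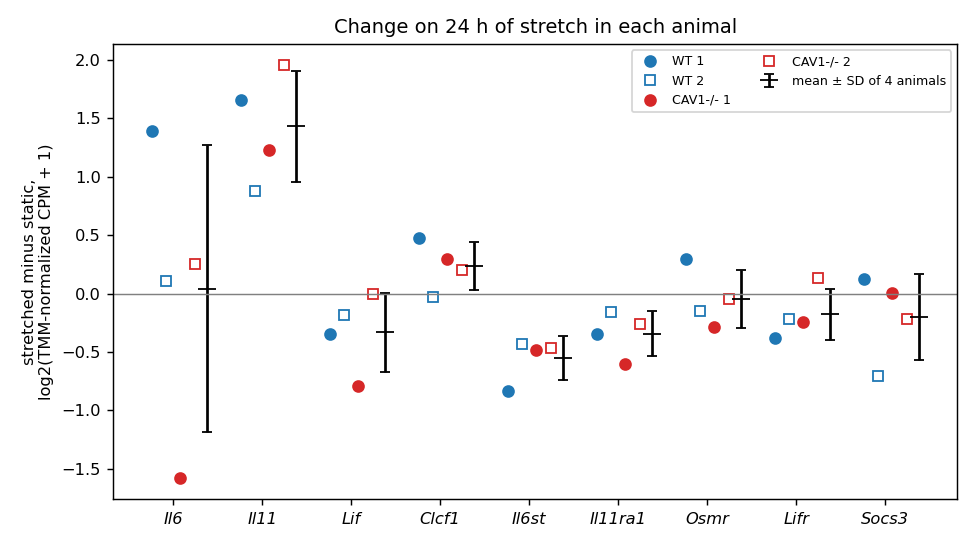
Change on 24 h of stretch in each of the 4 animals (stretched minus static, log2(TMM-normalized CPM + 1)), with the mean and SD of the 4 animals in black. Il11 lies above 0 and Il6st below 0 in every animal, whereas Il6 moves in opposite directions in animals of the CAV1-/- group.

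Il11ra1, the IL-11-specific receptor subunit (chr4:41699989-41769474), was 51.0 and 62.8 TMM-normalized CPM in static and 39.8 and 56.2 in stretched WT MCs. In CAV1-/- MCs it was 54.0 and 62.0 without and 35.2 and 51.6 with stretch. The decrease within each animal was smaller than the spread between animals in WT MCs. The averaged log2 change was -0.34 (SE 0.18 in the fit without pairing). Its limma adjusted p was 0.984 without pairing and 0.0987 with the animal as a block. Its level is uncertain, since 41.4% of the 61-base windows of its transcripts, 61 bases being the read length, also occur in transcripts of Il11ra2 or Gm13305, and because its gene model overlaps other genes.

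On stretch, Lif fell by 22.1% and fell by 12.2% in the WT animals and fell by 43.1% in CAV1-/- replicate 1, whereas CAV1-/- replicate 2 was at 52.0 without and 51.9 with stretch. The averaged log2 change was -0.33 (SE 0.21), with a limma adjusted p of 0.991.

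Clcf1, cardiotrophin-like cytokine factor 1 (chr19:4214238-4223490), was 40.8 and 39.9 TMM-normalized CPM in static and 57.2 and 39.2 in stretched WT MCs. In CAV1-/- MCs it was 53.4 and 36.5 without and 65.6 and 42.1 with stretch. It was higher on stretch in 3 of 4 animals, and the groups overlapped. The averaged log2 change was 0.24 (SE 0.21), with a limma adjusted p of 0.991. Of its windows, 6.45% are shared with a readthrough gene model.

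Il6 moved in opposite directions on stretch. It went from 28.8 to 8.98 in CAV1-/- replicate 1 and from 70.0 to 83.7 in replicate 2, and it went from 1.47 to 5.47 and from 2.50 to 2.77 in WT animals. The genotype by stretch interaction was -1.41 (SE 1.41), with a limma adjusted p of 1.00, and no gene passed this comparison (0%).

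Osmr and Socs3, which differed most evenly between genotypes, had no uniform direction on stretch. Osmr was higher on stretch in 1 of 4 animals and Socs3 in 2 of 4.

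Lifr, the receptor subunit for LIF (chr15:7090614-7197489), differed more between animals than between groups. It was 14.4 and 35.2 TMM-normalized CPM in static and 10.8 and 30.1 in stretched WT MCs, and 13.4 and 45.2 in static and 11.2 and 49.8 in stretched CAV1-/- MCs. Replicate 2 was higher in every group, and the groups overlapped. The sum of 7 fibroblast markers was split in the same way, at 247 to 908 in the 4 cultures of replicate 1 and at 1554 to 2003 in those of replicate 2, and its part in the level of Lifr was not tested.

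The other genes of the pathway were described from lists of 72 genes with values, of which none passed the test of limma without pairing in either direction in any of the 6 comparisons. Of the other ligands and receptors of the family, 9 of 12 had values. Il6ra, the IL-6-specific receptor subunit, was 4.93 to 7.43 TMM-normalized CPM in all cultures. Il31ra, a receptor subunit for IL-31, was lower in all 4 CAV1-/- cultures, at 0.0547 to 0.165, than in the WT cultures, at 0.937 to 3.08. All its CAV1-/- values are below the floor of 3 reads. Cntfr, the ciliary neurotrophic factor receptor subunit, was higher in all 4 CAV1-/- cultures, at 1.42 to 11.4, than in WT, at 0.242 to 1.38. The filter for testing asked for a value of at least 1 in 2 or more libraries. Il31ra met it through WT cultures only, and Cntfr could not have met it without CAV1-/- cultures.

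Among 11 signal transducers, Stat3 was even, at 259 to 309 TMM-normalized CPM. Gab1, a docking protein of the SHP2 branch, was 23.3 to 28.7 in WT and 16.8 to 21.1 in CAV1-/- cultures, which did not overlap. Stat5a and the exchange factor Sos1 changed most on stretch in this list, Stat5a from 18.5 and 19.6 to 14.8 and 16.3 in WT and from 20.5 and 20.3 to 13.9 and 16.1 in CAV1-/- MCs, and Sos1 from 50.2 and 45.5 to 54.7 and 49.5 in WT and from 51.2 and 49.9 to 65.8 and 58.3 in CAV1-/- MCs. Neither change was called.

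Of 14 other inhibitors, 3 were higher and 11 lower in static CAV1-/- than in static WT MCs, where 47.8% of all genes tested were higher. In stretched MCs 8 were higher and 6 lower. The median log2 differences were -0.025 in static and 0.0069 in stretched MCs, near those of all genes tested, at -0.013 and 0.00. The list thus had no common direction over both conditions and did not share the difference of Socs3. Ptpn6, the phosphatase SHP1 of blood cells, was 15.4 and 12.7 TMM-normalized CPM in the static and stretched cultures of CAV1-/- replicate 1 and 1.13 to 3.43 in the other 6, which is the split of the leukocyte markers. Cish, a STAT5-induced inhibitor, was 26.9 and 29.9 in static WT and 25.1 and 17.2 in static CAV1-/- MCs. Pias2, an inhibitor of STAT binding to DNA, ranged from 41.5 to 61.3 over all cultures and was higher on stretch in all 4 animals. It went from 46.7 and 47.0 to 53.9 and 53.6 in WT MCs. In CAV1-/- MCs it went from 52.2 and 41.5 to 61.3 and 52.8. The stretch changes of Cish and Pias2 were not called. The proteases Adam10 and Adam17, which shed receptor ectodomains, were 172 to 310 and 79.0 to 105.

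Of 24 STAT3-responsive genes, 18 were higher and 6 lower on average in CAV1-/- MCs in each condition. Of all genes tested, 47.8% were higher in static and 50.0% in stretched CAV1-/- MCs. The median log2 differences of the list were 0.33 in static and 0.29 in stretched MCs. The genes counted as higher include Saa3, described below. They also include Lcn2 and Lrg1, which were highest in the cultures of CAV1-/- replicate 1. These 2 genes met the filter only through those cultures, which favoured their count as higher in advance. Cebpd, a transcription factor of the acute phase response, was 18.5 and 16.3 TMM-normalized CPM in static WT and 38.7 and 64.3 in static CAV1-/- MCs. Ccl2, a monocyte chemoattractant, was 72.8 and 73.7 in static WT and 187 and 162 in static CAV1-/- MCs. Both were above WT in both static CAV1-/- cultures, but in stretched MCs the genotypes overlapped.

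The acute phase gene Saa3 and the metalloreductase Steap4 did not follow genotype. Saa3 was 272 to 559 TMM-normalized CPM in WT cultures, 192 and 99.3 in the static and stretched cultures of CAV1-/- replicate 1 and 3096 and 1819 in those of replicate 2, and Steap4 was split alike, at 37.5 to 90.2 in WT, 15.6 and 1.75 in replicate 1 and 190 and 111 in replicate 2.

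On stretch, 6 of the 24 STAT3-responsive genes were higher and 18 lower on average over both genotypes, with a median log2 change of -0.21, beside -0.0093 over all genes tested. With the animal as a block, a fit that called 1.47% of all genes, and 0 genes without CAV1-/- replicate 1 and 5 without replicate 2, limma called 4 of them: Vegfa, an angiogenic factor, rose by 0.50 on the log2 scale (adjusted p 0.0327), and Saa3 (adjusted p 0.0278), Icam1, an adhesion molecule (adjusted p 0.0327), and Pim3, a kinase (adjusted p 0.0340), fell by 0.82, fell by 0.51 and fell by 0.55. Vegfa, Icam1 and Pim3 are named after their values were seen.

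Of 12 inducers of the ligands, 10 were higher on average in CAV1-/- MCs in each condition, as were 47.8% and 50.0% of all genes tested. The median log2 differences of the list were 0.25 and 0.32, beside -0.013 and 0.00 over all genes tested. Il1a, a cytokine that induces Il6 through NF-kB, was 1.19 and 0.807 TMM-normalized CPM in static WT MCs and 36.5 and 47.9 in static CAV1-/- MCs. In stretched MCs it was 4.88 and 0.431 in WT and 24.6 and 70.9 in CAV1-/- cultures. Like Il6, it was higher in all 4 CAV1-/- cultures. Tnf, another inducer, was 0 to 0.350 in WT, 6.59 and 2.18 in CAV1-/- replicate 1 and 0.720 and 0.383 in replicate 2. Il1b was likewise higher in CAV1-/- replicate 1, at 3.46 and 1.80, than in replicate 2, at 0.103 and 0.274. Tnf and Il1b met the filter only through the cultures of CAV1-/- replicate 1, which favoured their count as higher in advance. Nfkbia, an NF-kB-induced inhibitor of NF-kB, was 19.3 to 48.6 in WT and 49.7 to 84.6 in CAV1-/- cultures, which did not overlap.

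**Figure D5:**
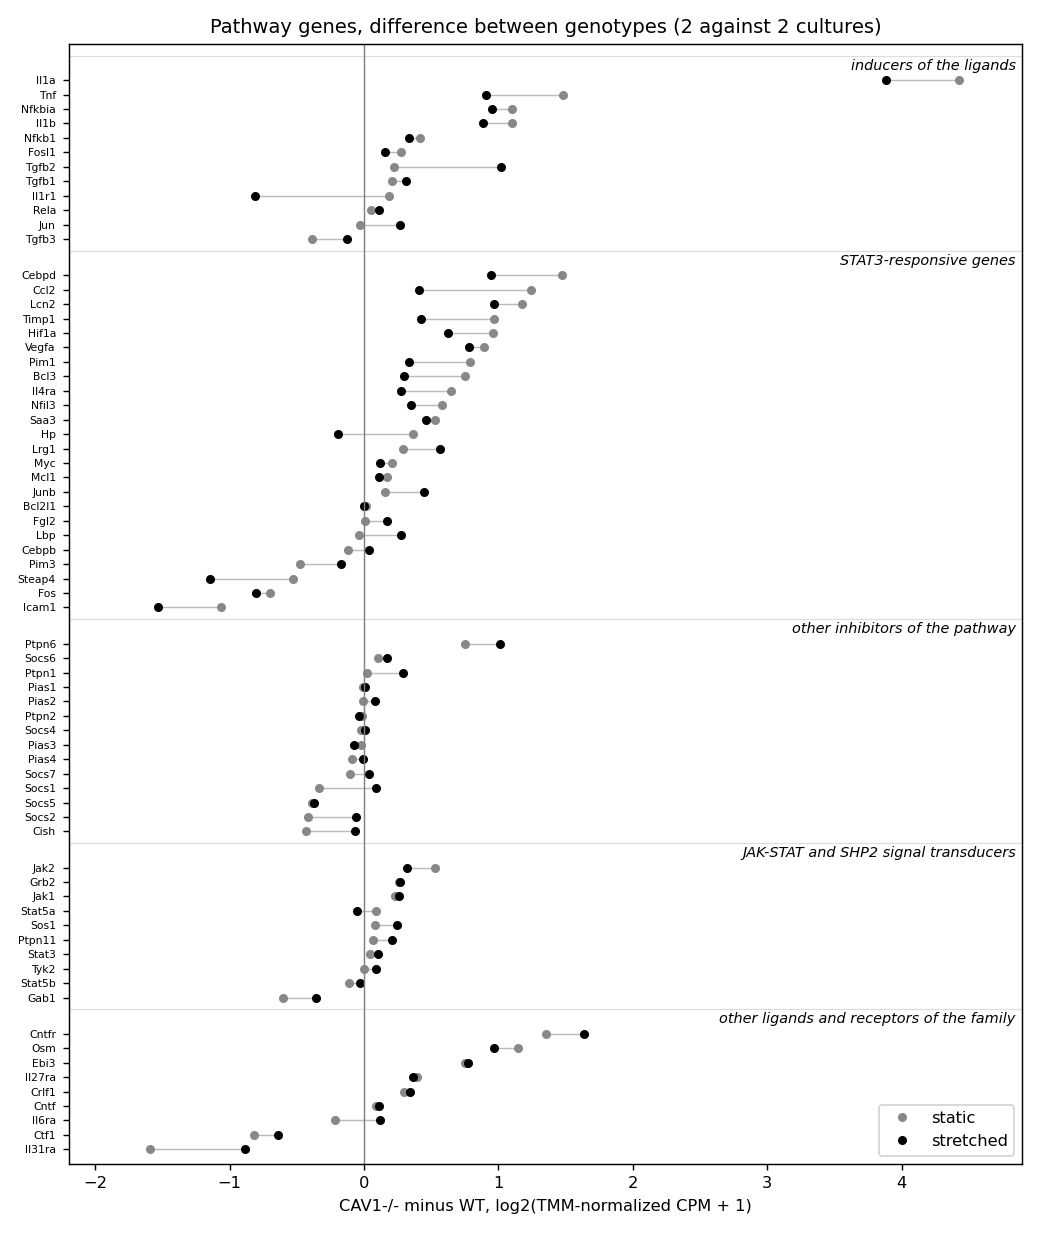
Difference between CAV1-/- and WT MCs for the other pathway genes except the 2 proteases and 1 gene not reported here, by list, on the log2(TMM-normalized CPM + 1) scale, in static (grey) and stretched (black) cultures. Most STAT3-responsive genes and inducers lie to the right of 0, Il1a is farthest to the right, and most signal transducers and inhibitors lie near 0.

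Genes most alike in pattern were sought over the 8 libraries among 10797 genes with a mean of at least 5, as Pearson's r of log2(TMM-normalized CPM + 1). The 8 libraries come from 4 animals, so that r describes these cultures only. For Il11 they were Cenpc1 (0.966), Cep170 (0.964), Galnt1 (0.964), Ptpn12 (0.957) and Pik3c2a (0.952), genes of the centromere, the centriole, O-glycosylation, a tyrosine phosphatase and a lipid kinase. For Il6 they were Gm10182 (0.983), Nfkb1 (0.983), which encodes an NF-kB subunit, Ctps2 (0.977), Snx18 (0.974) and Lrrc59 (0.971). Nfkb1 was 80.3 to 89.3 in WT and 94.3 to 124 TMM-normalized CPM in CAV1-/- cultures. For Socs3 they were Secisbp2 (0.981), Tmsb10 (0.960), Osmr (0.959), Mycl (0.959) and Gm7809 (0.958), so that the receptor subunit Osmr was among the 5 genes most like the inhibitor.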

How the data were processed

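MCs of 2 WT and 2 CAV1-/- mice were profiled by poly-A RNAseq in 8 libraries (fewer animals per group than the paper states for this experiment; 61-base single reads, a kit not stated to keep strand). Per the methods and labels, the authors used Cutadapt for trimming, RSEM with the GRCm38 transcriptome for counting and edgeR for TMM scaling. The deposited signal is TMM-normalized CPM for 13687 genes. Dividing it by its smallest step gave whole reads for 100% of values (within 0.01), with totals of 9777738 to 21203938. A floor of 3 reads equals 0.146 to 0.308 TMM-normalized CPM, for counting error only.

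The filter kept 13665 genes that reached 1 in 2 or more of the libraries. Values were tested as log2(value + 1), which understates changes of low genes, in limma 3.58.1 under R 4.3.3, using group means over all 8 libraries, a trended eBayes prior, 4 residual degrees of freedom and Benjamini-Hochberg adjustment over all genes, and called under 0.05. No exact permutation test of 2 against 2 cultures was used, since it cannot give a p below 0.333. The labels name the animal of each culture, and the cultures of an animal deviated together from their group means (r over 13665 genes 0.703 in WT and 0.85 in CAV1-/- MCs), so stretch was also fitted with the animal as a replicate block. The genotype tests ignore that the cultures of an animal deviate together, so 4 residual degrees of freedom overstate what is known of the spread there. Alternatives are given in the closing section, and include edgeR 4.0.16 and DESeq2 1.42.0 on the reads. The limma and edgeR fits, but not DESeq2, were run on simulated counts with planted stretch changes and no differences between animals or genotypes. That run checks the code and does not give error rates for these data. Positions come from GENCODE M21 (GRCm38), which held 13604 of the gene identifiers, and promoters from RefSeq.

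The genes and lists were chosen with earlier results of these data known. Named besides the members and Cav1 are pathway genes past the threshold, in each pathway list the 2 with the largest averaged stretch change and the 2 with the largest static genotype difference, and the 5 genes most correlated with each of Il11, Il6 and Socs3. Of these, 1 pathway gene is not reported here.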

Additional observations from a re-analysis of the deposited data

How the results depend on the processing

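Most directions held under the alternatives, while the calls depended on the test. The alternatives were pseudocounts of 0.1 and 5, no filter, a mean of at least 5, median-of-ratios rescaling (which moved the median of all genes by at most 0.0235 on the log2 scale), eBayes without trend, only the 4 libraries of a comparison, a replicate block, edgeR, DESeq2 and each library left out. Added after seeing the data were fits without both cultures of CAV1-/- replicate 1 and, with the block, without each animal. Of the 453 values for single members under these, 434 kept their direction and their side of the threshold, 16 passed it where limma without pairing had not, and 3 turned direction. Those 3 were interactions: with 1 library left out, that of Il11 ranged from -0.36 to 1.01 and that of Il6 from -2.95 to 0.13, the extremes of Il11 coming without CAV1-/- static replicates 2 and 1 and those of Il6 without CAV1-/- stretched replicates 2 and 1. The cause was not tested.

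The replicate block used the animal for stretch. It called 201 genes for the averaged change (152 by edgeR, 39 by DESeq2 without pairing), of which 2 were members with limma and 2 with edgeR (Il11, adjusted p 0.0429, and Il6st, 0.0469, in edgeR), and 1 gene (2 by edgeR) for stretch in CAV1-/- MCs. DESeq2 called 3 genes for stretch in WT and 7 in CAV1-/- MCs. With the block and 1 animal left out, the averaged change gave 124 genes without WT replicate 1, 769 without WT replicate 2, 0 without CAV1-/- replicate 1 and 5 without CAV1-/- replicate 2, with 2, 2, 0 and 0 members. Without the block, every library left out gave 0 calls for stretch.

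Between genotypes the replicate number pairs different animals, which share only a number, although same-numbered libraries deviated together (r 0.522 in static and 0.484 in stretched MCs). With this number as a block, limma called 246 genes in static and 110 in stretched MCs and edgeR 229 and 90, including 1 member in static MCs in each (Osmr, adjusted p 0.0382 and 0.0466). DESeq2 called 309 and 238 genes and 3 members in each condition, whose adjusted p-values over all alternatives ranged from 0.000117 to 0.983 for Il6, from 2.63e-05 to 0.663 for Osmr and from 0.000345 to 0.678 for Socs3 in static MCs. In static MCs edgeR without a block called 2 genes and eBayes without trend 6. With only the 4 libraries of a comparison, and without both cultures of CAV1-/- replicate 1, 0 genes were called in both conditions. With 1 library left out the counts were 0 to 8 in static and 0 to 7 in stretched MCs, and no member was called. Of the 72 pathway genes, DESeq2 called 5 in static and 3 in stretched MCs, and these calls went in both directions. Il1a was called as higher in CAV1-/- MCs in both conditions, and Vegfa and Ccl2 as higher in static MCs. Il31ra, below the floor of 3 reads in every CAV1-/- culture, was called as lower in static and Icam1 as lower in stretched CAV1-/- MCs. The fewest reads behind a member were 21 (Il6 in a static WT culture).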
